A study of Oryctolagus cuniculus with 6 samples.

Results

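The 8 genes described here, MBP, PMP22, PMP2, MAG, CLDN19, GJB1, NCMAP and PLLP, encode proteins of the peripheral myelin sheath, and they were taken by gene symbol from the count tables of injured rabbit facial nerve. All 8 were among the 17396 genes listed, and all 8 were among the 14003 genes that passed the filter on low counts. The study sequenced 6 libraries of facial nerve from wild type male Japanese white rabbits, 3 to 4 months old, with 3 libraries in each group. In the facial nerve injury (FNI) group the main trunk of the left facial nerve was cut with scissors. In the FNI+I-125 group the same cut was made and a radioactive iodine-125 seed was implanted near the nerve as the wound was closed. Both groups therefore carried the transection, and all nerves were collected on day 14. The uninjured sham group was not analysed here, so each value compares injured nerve with injured and irradiated nerve, and none of the values below is set against intact nerve. Whole pieces of tissue were sequenced, and the labels do not tie a library to a rabbit.

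A Schwann cell wraps its membrane many times around an axon. In most of the sheath the cytoplasm is squeezed out and the layers are fused into compact myelin, while narrow channels of cytoplasm remain at the inner and outer edge, beside the nodes and in the clefts through the sheath. MBP holds the cytoplasmic faces of the membrane together, PMP22 is a membrane glycoprotein of compact myelin whose gene dosage matters in inherited neuropathy, and PMP2 is a fatty acid binding protein on the cytoplasmic side. MAG, CLDN19, GJB1 and NCMAP belong to the uncompacted regions. After a nerve is cut, Schwann cells beyond the cut are known to switch off myelin genes and take up a repair state, and to switch the genes on again when they wrap regenerating axons.

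Total counts ran from 16031151 to 16798012 per library, so the libraries were of nearly equal depth. Levels are given in CPM, the count of a gene scaled to the library size with edgeR's TMM factors, and are compared between libraries and not between genes, since gene length is not corrected. The Schwann lineage list (SOX10, S100B, CDH19 and 7 others) had counts for 10 of 10 genes in all libraries, with a summed level of 1689 to 2821 CPM in the FNI group and 413 to 1604 CPM in the FNI+I-125 group. Several libraries stood apart. FNI replicate 3 had the highest level of every one of the 8 genes. FNI replicate 2 held 48033 CPM of DNASE1, which is at 13.4 to 2416 CPM in the other libraries, and its summed salivary gland list stood at 49613 CPM. FNI+I-125 replicates 1 and 2 held 5473 and 4910 CPM of skeletal muscle genes, against 58.0 to 177 CPM elsewhere. Keratinocyte genes were highest in FNI+I-125 replicate 3, at 1399 CPM, and in FNI replicate 1, at 825 CPM. The summed macrophage list was lowest in FNI replicate 3, at 317 CPM, against 1424 and 1905 CPM in the other FNI libraries and 2193 to 6014 CPM across the FNI+I-125 libraries. Their part in the results below was not tested, and each comparison is given with the libraries that decide it.

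The 8 genes were lower in most FNI+I-125 libraries, but the spread between nerves of a group was of the same order as the difference between the groups. Together they held 0.172%, 0.0753% and 1.22% of all counts across FNI replicates 1 to 3, and 0.0183%, 0.0820% and 0.0216% across FNI+I-125 replicates 1 to 3. FNI+I-125 replicate 2 thus lay above FNI replicate 2, and the groups overlapped. In bulk tissue, fewer myelinating cells and less myelin RNA per cell cannot be told apart.

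**Figure D1:**
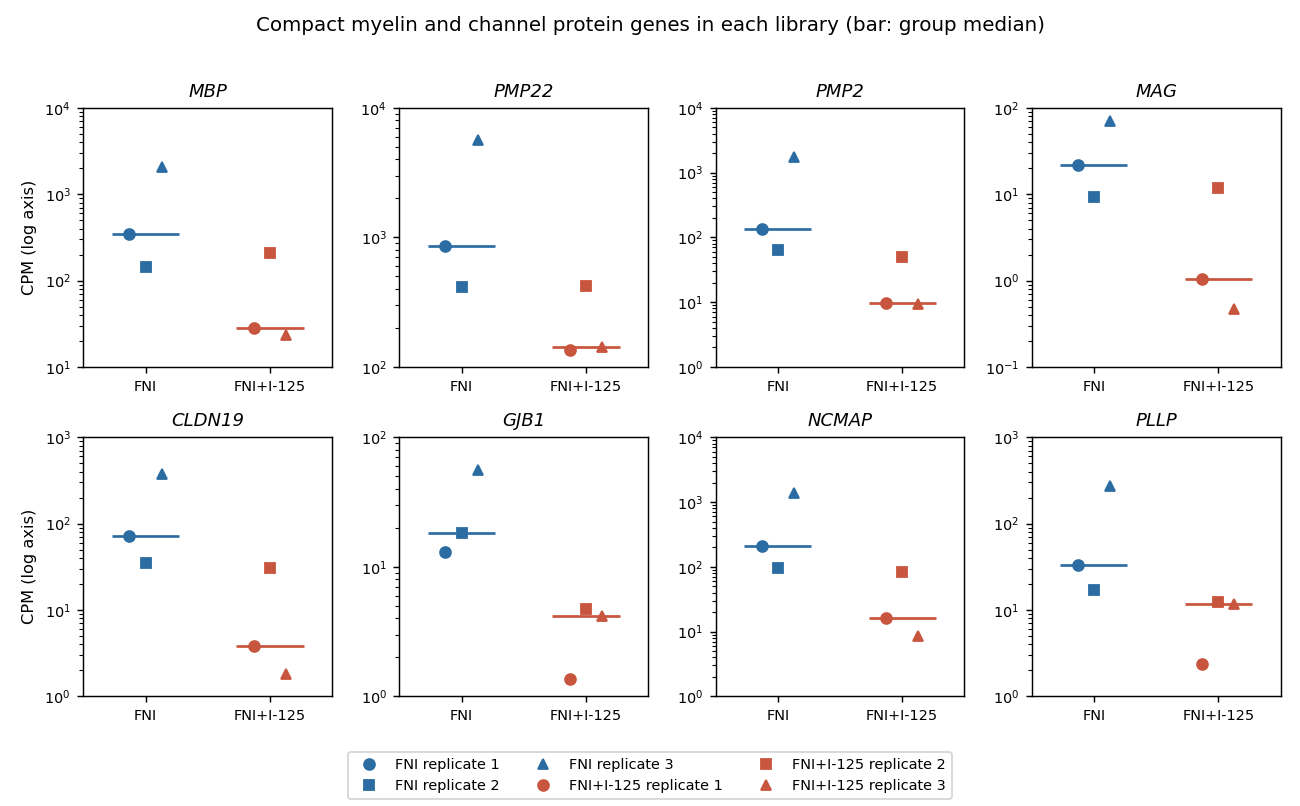
CPM (log axis) of each of the 8 genes in the 3 FNI and 3 FNI+I-125 libraries, with the replicate number given by the marker and the group median by a bar. FNI replicate 3 is the highest library in all 8 panels, and FNI+I-125 replicate 2 lies above FNI replicate 2 for MBP, PMP22 and MAG.

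MBP stood at 342, 145 and 2047 CPM across FNI replicates 1 to 3 and at 28, 207 and 23.7 CPM across FNI+I-125 replicates 1 to 3. The highest FNI library was 14.1 times the lowest, and FNI+I-125 replicate 2 exceeded FNI replicate 2. The log2 fold change of FNI+I-125 against FNI was -3.29 with a standard error of 1.36 (edgeR's quasi-likelihood test, unadjusted p = 0.0514, adjusted p = 0.296). PMP22 had the highest counts of the group of genes, with 851, 412 and 5614 CPM against 136, 424 and 144 CPM. Its groups overlapped by a narrow margin, since FNI+I-125 replicate 2 was 424 CPM and FNI replicate 2 was 412 CPM. Its log2 fold change was also -3.29, with a standard error of 1.13 (edgeR, adjusted p = 0.280).

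PMP2 differed most between the groups in fold. It was counted at 137, 63.8 and 1735 CPM across the FNI libraries and at 9.86, 50.4 and 9.38 CPM across the FNI+I-125 libraries. All FNI+I-125 libraries lay below all FNI libraries (two-sided exact permutation test on log2(CPM + 1) values, p = 0.1, the smallest that 3 against 3 allow). The log2 fold change was -4.80 with a standard error of 1.57 (edgeR, adjusted p = 0.280), and its 95% interval reached from -8.63 to -0.96. It also had the widest spread in the FNI group, with the highest library at 27.2 times the lowest.

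MAG, a sialic acid binding adhesion protein on the membrane that faces the axon, gave the smallest count of the 8 genes. The FNI libraries held 377, 149 and 1193 counts of MAG, and those of the FNI+I-125 group held 16, 196 and 8 counts. In CPM this was 22.1, 9.38 and 70.4 against 1.04, 11.9 and 0.47. The 8 counts of FNI+I-125 replicate 3 have an exact 95% Poisson interval of 3.45 to 15.8 counts, which covers counting error only and lies below that of every FNI library. The 11.9 CPM of FNI+I-125 replicate 2 lay between FNI replicates 2 and 1. The log2 fold change of MAG was -2.92 with a standard error of 1.36 (edgeR, unadjusted p = 0.0747, adjusted p = 0.317).

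CLDN19, a claudin of the tight junctions that Schwann cells form within their own membrane, stood at 72.7, 35.4 and 380 CPM against 3.85, 30.9 and 1.82 CPM. The groups did not overlap, although FNI replicate 2 and FNI+I-125 replicate 2 were close, with Poisson intervals of 32.5 to 38.4 CPM and 28.3 to 33.7 CPM that overlap. Its log2 fold change was -3.74 with a standard error of 1.42 (edgeR, adjusted p = 0.286). NCMAP, a membrane protein of uncompacted myelin, followed the same order of libraries, with 211, 94.7 and 1384 CPM against 16.1, 81.7 and 8.62 CPM. Its log2 fold change was -3.99 with a standard error of 1.38 (edgeR, adjusted p = 0.280). For both genes FNI+I-125 replicate 3 was the lowest of the 6 libraries.

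GJB1 encodes the connexin whose channels join the layers of the sheath through the uncompacted regions. It stood at 13.1, 18.4 and 55.5 CPM across the FNI libraries and at 1.37, 4.74 and 4.16 CPM across the FNI+I-125 libraries. The groups were separated by a wide gap: the highest FNI+I-125 library was at 4.74 CPM and the lowest FNI library at 13.1 CPM. GJB1 had the narrowest spread of the 8 genes in the FNI group, 4.23 times from lowest to highest. Its log2 fold change was -3.08 with a standard error of 0.74, and the 95% interval ran from -4.88 to -1.27 (edgeR, unadjusted p = 0.00584, adjusted p = 0.280). PLLP, a proteolipid of the MARVEL family found in myelin and in epithelial membranes, stood at 33.0, 17.1 and 273 CPM against 2.35, 12.4 and 11.6 CPM, without overlap. Its log2 fold change was -3.61 with a standard error of 1.25 (edgeR, adjusted p = 0.280).

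At an adjusted p under 0.05 and |log2 fold change| of 1.5 or more, edgeR called 0 of the 8 genes, as it called 0 of all 14003 genes (0%). When the p was left unadjusted and the fold threshold kept, 6 of the 8 were lower, all but MBP and MAG, against 2.19% of all genes tested. The same 6 were under 0.05 at any fold, as were 17.0% of all genes in either direction. With the fold threshold kept, limma-voom gave 6 of 8 at an unadjusted p under 0.05 (1.27% of all genes), and 0 at the adjusted p. Its 6 were not the same, since MBP passed and MAG and PLLP did not. With DESeq2, 7 of the 8 passed an adjusted p under 0.05, all but MAG, against 1.16% of all genes. There was no overlap between the groups for 5 of the 8, namely PMP2, CLDN19, GJB1, NCMAP and PLLP, where 12.3% of all genes were lower without overlap. All 8 log2 fold changes were negative, with a median of -3.45, and the median over all genes tested was 0.01.

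The size of the differences rested on FNI replicate 3. With it left out, MBP had a log2 fold change of -1.5, PMP22 of -1.44, PMP2 of -2.12, MAG of -1.81, CLDN19 of -2.15, NCMAP of -2.11 and PLLP of -1.53. Only GJB1, at -2.21 with a standard error of 0.55, then kept an unadjusted p under 0.05 in edgeR (adjusted p = 0.364), against 1.11% of all genes in that fit. DESeq2 without this library called GJB1 alone among the 8 (adjusted p = 0.0115), with 0.522% of all genes called lower. Without FNI+I-125 replicate 1, and likewise without FNI+I-125 replicate 3, GJB1 was again the 1 gene of the 8 at an unadjusted p under 0.05 with edgeR. With the fold threshold kept, 122 of 14344 and 380 of 14276 genes were lower in these fits. FNI+I-125 replicate 2 had the opposite weight. Without it the groups did not overlap for any of the 8 genes, in a setting where 17.6% of all genes were lower without overlap, and the log2 fold changes ran from -6.09 for PMP2 to -3.41 for GJB1.

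**Figure D2:**
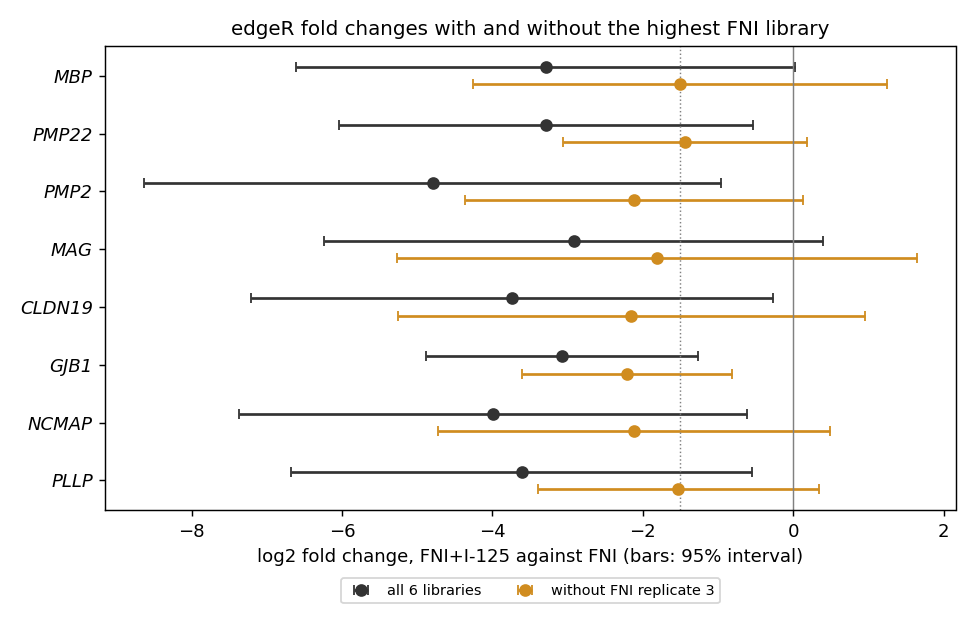
Log2 fold change of FNI+I-125 against FNI from edgeR for each gene, with 95% intervals, in all 6 libraries (black) and without FNI replicate 3 (orange). The dotted line marks the fold threshold of -1.5; without FNI replicate 3 the points lie between -2.21 and -1.44, and the interval of GJB1, from -3.61 to -0.81, is the only one of these 8 that does not reach 0.

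The order of the 6 libraries was nearly the same for every gene. FNI replicate 3 was highest for 8 of 8 genes and FNI replicate 1 came next for 7 of 8, with GJB1 as the exception. FNI+I-125 replicates 1 and 3 took the lowest 2 places for all 8 genes, with replicate 3 at the bottom for MBP, PMP2, MAG, CLDN19 and NCMAP and replicate 1 at the bottom for PMP22, GJB1 and PLLP. Pearson's r of log2(CPM + 1) between the genes ran from 0.859 to 0.998 over the 28 pairs, with Spearman's rho from 0.771 to 1. The 6 libraries were of nearly equal depth but differed in gland, muscle, keratinocyte and macrophage transcripts. The part of these differences in the correlations was not tested. Without FNI replicate 3 the lowest r was 0.716, for NCMAP and PLLP, and without FNI+I-125 replicate 1 as well it was 0.552, for MBP and GJB1.

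For 23 of the 28 pairs of genes, the log2 ratio had a smaller SD across the FNI libraries than the level of either gene, and the other 5 pairs all held GJB1. The same was so for 14 of the 28 pairs across the FNI+I-125 libraries. Across the FNI libraries alone, MBP, PMP22 and NCMAP kept the steadiest proportions. Ratios of counts between a pair of genes in the same library do not depend on library size, and the length of the genes cancels when the same ratio is followed from library to library. MBP had 0.402, 0.353 and 0.365 counts per PMP22 count across FNI replicates 1 to 3, with levels that spanned 14.1 times. Its ratio to NCMAP was 1.62, 1.54 and 1.48. In log2 units the SD of this ratio was 0.07 in the FNI group, while the SD of MBP itself was 1.94. In FNI+I-125 replicates 1 to 3 the MBP to PMP22 ratio was 0.206, 0.488 and 0.166, and the MBP to NCMAP ratio was 1.74, 2.53 and 2.75. The FNI+I-125 libraries thus spread more widely in these ratios, with an SD of 0.82 against 0.10 for MBP to PMP22, a difference of spread that was not tested.

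Of the 28 pairs, 5 had ratios that did not overlap between the groups, where 26.5% of all pairs of genes tested did not. These were MBP to PMP2, MBP to CLDN19, MBP to NCMAP, PMP22 to PMP2 and PMP22 to NCMAP (exact permutation test, two-sided, p = 0.1 for each, the smallest that 3 against 3 allow). In all 5 the gene with the relatively lower counts in the FNI+I-125 group was PMP2, CLDN19 or NCMAP. PMP22 had 6.2, 6.45 and 3.24 counts per PMP2 count in the FNI libraries and 13.8, 8.41 and 15.3 across the FNI+I-125 libraries. MBP had 4.70, 4.11 and 5.39 counts per CLDN19 count against 7.22, 6.70 and 12.9. At 17.9%, the share of non-overlapping pairs was below that of all gene pairs, and nothing particular to these genes is read from it.

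**Figure D3:**
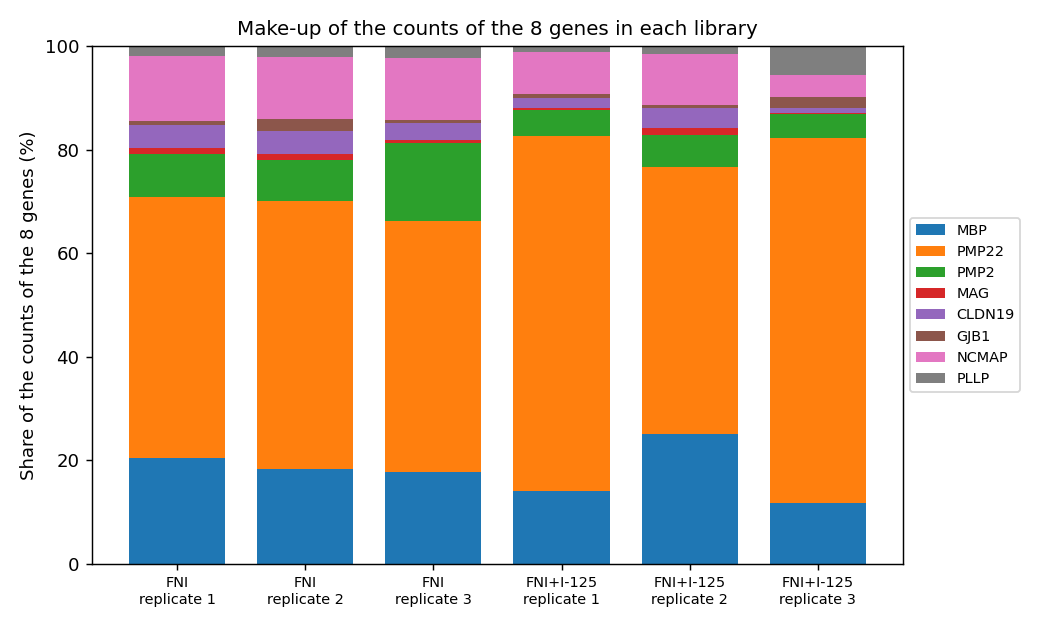
Share of each gene in the summed counts of the 8 genes (percent, stacked to 100) in each library. PMP22 makes up 48.6% to 51.8% across the FNI libraries and FNI+I-125 replicate 2, and 68.5% and 70.6% for FNI+I-125 replicates 1 and 3.

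In FNI replicates 1 to 3, PMP22 made up 50.6%, 51.8% and 48.6% of the counts of the 8 genes. In FNI+I-125 replicates 1 to 3 its share was 68.5%, 51.5% and 70.6%. PMP2 took 15% in FNI replicate 3 and 8.15% and 8.02% in the other FNI libraries, and 4.61% to 6.12% across the FNI+I-125 libraries. FNI+I-125 replicate 2 had the highest share of MBP, 25.1%, and of MAG, 1.45%. The nerve with the highest myelin RNA was therefore not the one with the highest proportion of MBP or MAG.

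GJB1 and PLLP left the common proportions in particular libraries. MBP had 26.0 and 36.9 counts per GJB1 count in FNI replicates 1 and 3, but 7.90 in FNI replicate 2. It had 19.98 and 43.4 for FNI+I-125 replicates 1 and 2, but 5.67 in FNI+I-125 replicate 3. For PLLP the ratio was 7.5 to 10.4 across the FNI libraries and 11.8 and 16.7 for FNI+I-125 replicates 1 and 2, but 2.04 in FNI+I-125 replicate 3. The summed salivary gland list was highest in FNI replicate 2, at 49613 CPM, and stood at 1963 CPM in FNI+I-125 replicate 3. The summed keratinocyte list was highest in FNI+I-125 replicate 3, at 1399 CPM, and stood at 132 CPM in FNI replicate 2. FNI replicate 1 was next highest for both lists, at 3947 and 825 CPM. FNI replicate 2 held 390 CPM of AQP5, the water channel of salivary acinar cells, against 0.35 to 101 CPM elsewhere. FNI+I-125 replicate 3 held 947 CPM of KRT5, a basal epithelial keratin, and FNI replicate 1 held 603 CPM. Of the salivary gland list 15 of 20 genes were in the files, with a summed level of 3947, 49613 and 695 CPM in the FNI group and 953 to 1963 CPM in the FNI+I-125 group, and KRT18, named only for this zero, was at 0 counts in FNI replicate 3. Of the keratinocyte list 7 of 8 were in the files, at 41.8 to 825 CPM and 20.2 to 1399 CPM, and KRT1, named for the same reason, was at 0 counts in FNI replicate 3 and FNI+I-125 replicate 1. Without FNI replicate 2, GJB1 had a log2 fold change of -3.32, and without FNI+I-125 replicate 3 it was -3.24 for GJB1 and -3.86 for PLLP. The part of these transcripts in the ratios was not tested.

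**Figure D4:**
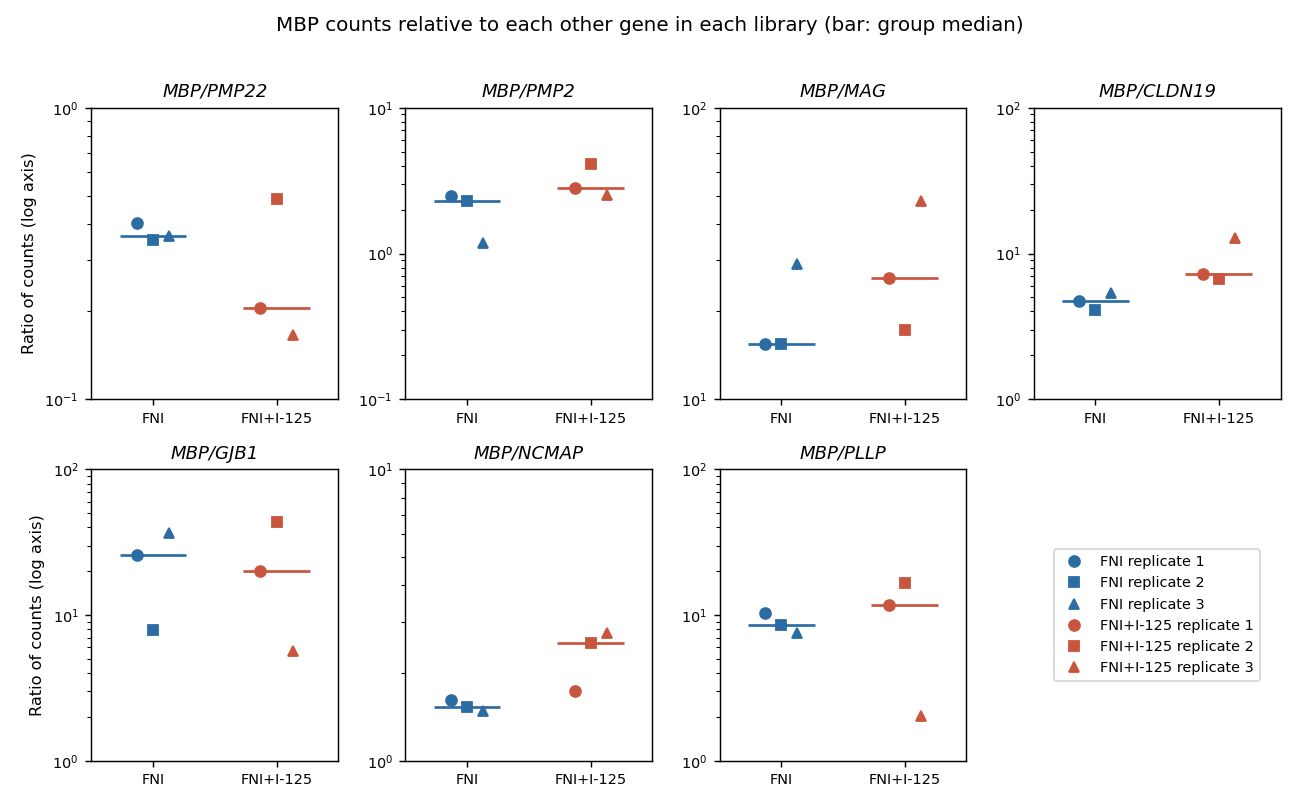
Counts of MBP per count of each of the other 7 genes (log axis) in each library, with the group median as a bar. Ratios to NCMAP, CLDN19 and PMP2 are higher in all FNI+I-125 libraries than in the FNI libraries, while the ratios to GJB1 and PLLP have their lowest value, 5.67 and 2.04, in FNI+I-125 replicate 3.

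The genes were next set against SOX10, the transcription factor that marks the Schwann lineage in all its states and is also found in salivary gland cells. SOX10 stood at 274, 276 and 228 CPM across the FNI libraries and at 54.3, 133 and 222 CPM across the FNI+I-125 libraries. FNI replicate 3, with the highest myelin genes, was the lowest FNI library for SOX10. MBP had 1.25, 0.527 and 8.96 counts per SOX10 count across FNI replicates 1 to 3 and 0.516, 1.56 and 0.107 across FNI+I-125 replicates 1 to 3. By this measure FNI replicate 2 and FNI+I-125 replicate 1 were at the same level of MBP, and FNI+I-125 replicate 2 was above FNI replicates 1 and 2. PMP22 had 3.10, 1.49 and 24.6 against 2.50, 3.19 and 0.646. FNI+I-125 replicate 3 had the lowest ratio for all 8 genes except PLLP, which was lowest in replicate 1 at 0.0438.

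Relative to SOX10, 1 of the 8 genes was lower in the FNI+I-125 group without overlap, and this was GJB1. The ratio of GJB1 to SOX10 was 0.0479, 0.0667 and 0.243 across the FNI libraries and 0.0258, 0.0359 and 0.0189 across the FNI+I-125 libraries (two-sided exact permutation test, p = 0.1, the smallest that 3 against 3 allow). Of all genes tested, 20 of 14002 (0.143%) had a lower ratio to SOX10 without overlap. For the other 7 genes the p was 0.2 to 0.5. The mean log2 ratio to SOX10 was lower in the FNI+I-125 group for all 8 genes, by 1.49 for PMP22 to 2.89 for CLDN19. With S100B as the reference 2 genes did not overlap, GJB1 and PMP2, where 0.0786% of all genes were lower without overlap. With CDH19 (0.521% of all genes) or the summed lineage list (0.229%) it was GJB1 alone among the 8.

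**Figure D5:**
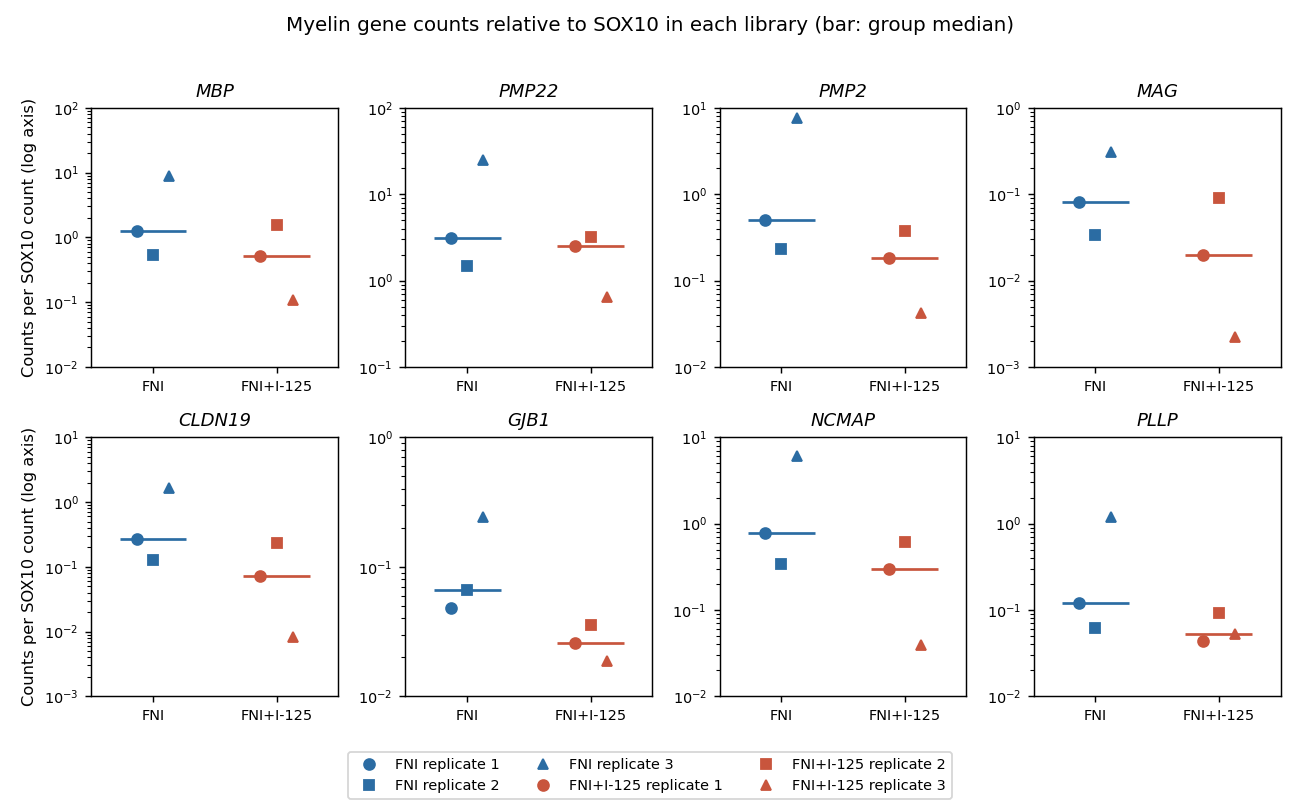
Counts of each gene per SOX10 count (log axis) in each library, with the group median as a bar. The groups overlap in 7 of the 8 panels, and in the panel of GJB1 the FNI+I-125 libraries, at 0.0189 to 0.0359, lie below the FNI libraries, at 0.0479 to 0.243.

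The other genes of the myelin program were counted in 3 lists written from general knowledge. In the list of other myelin proteins, 9 of 29 genes tested were lower at an unadjusted p under 0.05 with |log2 fold change| of 1.5 or more and 0 were higher, against 2.19% and 2.77% of all genes. Its median log2 fold change was -1.08, and without FNI replicate 3 it was -0.64 with 1 gene lower. PRX, which anchors the outer sheath to the basal lamina, stood at 441, 193 and 2831 CPM across the FNI libraries against 36.4, 187 and 12.7 CPM across the FNI+I-125 libraries. CADM4, an adhesion protein on the Schwann cell side of the axon contact, stood at 89.6, 55.8 and 474 CPM against 12.4, 37.8 and 24.1 CPM, without overlap. LITAF, an endosomal protein, had the opposite direction, with 151, 158 and 88.8 CPM against 233, 217 and 230 CPM.

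In the list of myelin lipid enzymes, 4 of 22 genes were lower and 0 were higher by the same criteria, and all 22 log2 fold changes were negative, with a median of -1.15. UGT8, which makes galactosylceramide, stood at 89.6, 42.7 and 441 CPM against 8.75, 32.3 and 11 CPM, and FA2H, which hydroxylates its fatty acids, at 31.6, 13.5 and 264 CPM against 4.11, 12.2 and 2.40 CPM. Both were without overlap. In the list of transcription factors and receptors 1 of 22 was lower, POU3F2, at 7.37, 5.10 and 10.6 CPM against 0.85, 1.89 and 2.99 CPM, with a list median of -0.33. Over the 3 lists, 14 of 72 genes were lower, 3 without FNI replicate 3, 1 without FNI+I-125 replicate 1 and 3 without FNI+I-125 replicate 3. Of all genes, 306 of 14003 were lower, and 160 of 14364, 122 of 14344 and 380 of 14276 without these libraries in turn. EGR2, the transcription factor that drives myelin genes, is named after its values were seen. It stood at 45.9, 28.8 and 89.7 CPM against 16, 65.2 and 28.7 CPM, so the groups overlapped and FNI+I-125 replicate 2 was above FNI replicates 1 and 2 (edgeR, log2 fold change -0.58, standard error 0.63, adjusted p = 0.625).

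Genes of immature and repair Schwann cells gave 1 of 23 lower and 0 higher, with a median log2 fold change of 0.31. Without FNI replicate 3 there were 0 lower and the median was 0.04. The 1 gene was SHH, at 4.33, 2.01 and 8.03 CPM against 1.11, 1.89 and 0.35 CPM. NGFR, the neurotrophin receptor of repair cells, stood at 435, 500 and 137 CPM against 111, 253 and 603 CPM, and JUN, a transcription factor of the repair state, at 118 to 200 CPM across the FNI libraries and 166 to 247 CPM across the FNI+I-125 libraries. NGFR was lower in FNI replicate 3 than in the other FNI libraries and highest in FNI+I-125 replicate 3, the reverse of MBP in these 2 libraries. SOX2, GDNF and OLIG1, named after their values were seen, were lowest in the same FNI library, at 4.90 CPM, 0.41 CPM and 0 counts, against 35.6 and 38.7, 6.96 and 11.5, and 4.91 and 15.6 CPM in FNI replicates 1 and 2.

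Relatives of the 8 genes were counted in 6 family lists by the same criteria, met by 2.19% of all genes for lower and 2.77% for higher. Among connexins, GJB1 was the 1 gene of 13 tested that was lower, and GJA1, the widespread connexin of fibroblasts and many other cells, was higher without overlap, as were 14.8% of all genes, at 294, 128 and 175 CPM across the FNI+I-125 libraries against 126, 92.3 and 89.9 CPM (edgeR, log2 fold change 0.95, standard error 0.33, adjusted p = 0.280). Among the PMP22 family, 1 of 6 was lower, PMP22 itself, and EMP1 and EMP2 stood at 50.5 to 125 CPM and 97.2 to 242 CPM across the FNI libraries and at 112 to 166 CPM and 44.7 to 99.6 CPM across the FNI+I-125 libraries. Among fatty acid binding proteins, PMP2 was the 1 gene of 8 that was lower, and FABP4, the form of adipocytes, stood at 148, 362 and 755 CPM against 122.7, 119 and 253 CPM. Among claudins, 3 of 14 were lower and 12 of 14 had a negative log2 fold change, with a median of -1.18. The 3 were CLDN19, CLDN1 of the perineurium (45.8, 43.9 and 128 CPM against 11.9, 26.8 and 27 CPM) and CLDN10, an epithelial claudin (23.5, 48.9 and 1.12 CPM against 1.11, 0.24 and 0.12 CPM). In the MARVEL list 4 of 13 were lower, PLLP, MAL, CMTM5 and CMTM8. Without FNI replicate 3, 1 gene was lower in each of the connexin, claudin and MARVEL lists and 0 in each of the other 3. Among the sialic acid binding relatives and axonal partners of MAG, 1 of 10 was lower, B4GALNT1, which makes the gangliosides that MAG binds, at 26.0, 28 and 136 CPM against 13.8, 17.6 and 6.69 CPM. In the same list 1 was higher, RTN4RL2, a Nogo receptor relative, at 14.4, 34.4 and 31.5 CPM across the FNI+I-125 libraries against 7.43, 12.1 and 2.01 CPM, a call that was lost without FNI replicate 3.

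The genes whose pattern over the 6 libraries was most like the mean of the 8 were sought among 9761 other genes with a mean of at least 10 CPM. By Pearson's r of log2(CPM + 1), these were SCARA5 (0.998), PALM (0.998), FSTL5 (0.998), PHF1 (0.998) and UGT8 (0.997). Without FNI replicate 3 the closest were PALM, SH3TC2, FSTL5, MMRN2 and SCARA5, each with an r of 0.996 or 0.997 over 5 libraries. An r over 0.9 was found for 594 genes, 6.09% of those searched, and the measure takes no account of amplitude. FSTL5 ranged from 0.33 to 91.3 CPM, while PHF1 ranged from 49.8 to 78.5 CPM. SCARA5 stood at 184, 151 and 322 CPM against 82.1, 132 and 88.1 CPM, and it had the library order of the mean of the 8 genes, with a Spearman's rho of 1.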

How the data were processed

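Poly(A) RNA of 6 facial nerve libraries was sequenced by the authors, who deposited raw counts of reads per gene, 1 table per library, without normalization or pooling. The submitters' processing notes name HISAT2 and the OryCun2.0 genome. The counting program, annotation and strand setting are not given in the sources used here. LOC identifiers were given symbols from the RefSeq table of assembly mOryCun1.1 (542 of 2992). No coordinates, sequences or levels per gene length are given, since the builds differ and the table holds no transcript lengths. Libraries of a group differed by more than counting noise.

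Counts were tested with edgeR 4.0.16 in R 4.3.3 (glmQLFit and glmQLFTest, TMM, filterByExpr with a minimum count of 10), as a two-sided test whose p-values were adjusted by the Benjamini-Hochberg method across the whole table. The threshold was an adjusted p under 0.05 and |log2 fold change| of 1.5 or more, as in the study's criteria. DESeq2 1.42.0, limma 3.58.1 (voom), other scalings and filters, fits with a replicate block and fits without 1 library at a time were alternatives. For single values, exact permutation tests were run on log2(CPM + 1), and ratios used 0.5 added counts. The statistics were tested on simulated data, where DESeq2 recovered more of the changed genes than edgeR or limma-voom and also made more wrong calls. Intervals on counts cover counting error only. P-values measure the spread between these libraries.

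The 8 genes, the lists and the tests were chosen with earlier results of these data known, and the lists were written from general knowledge. The text names the 8 genes, genes of the lists with the highest mean CPM or the smallest p, and the 5 genes most like the mean of the 8. Any gene outside these rules is marked as such where it is named.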

Additional observations from a re-analysis of the deposited data

How the results depend on the processing

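Over 167 alternative values of the 8 log2 fold changes, all 167 were negative and 33 passed an adjusted p under 0.05, each of them from DESeq2. At the adjusted p edgeR and limma-voom called 0 of the 8 genes under every alternative run, and DESeq2 called 7, or 1 to 8 with each library left out, an alternative chosen after seeing the data. DESeq2 without FNI replicate 3, and likewise without FNI+I-125 replicate 1, called 1, and without FNI+I-125 replicate 3 it called 3. Over all genes in either direction, the same fits called 256 of 14364, 157 of 14344 and 578 of 14276. DESeq2 on all 6 libraries called 399 of 14003, and 157 of 14344 to 662 of 14390 with each library left out. At the unadjusted p the main count of 6 genes ranged from 1 to 7 with each library left out in edgeR. In DESeq2 it ranged from 3 to 8. Over all genes, 122 of 14344 to 416 of 14333 were lower at that level in edgeR. For DESeq2 this was 175 of 14364 to 719 of 14276. The edgeR count was 1 without FNI replicate 3, FNI+I-125 replicate 1 or FNI+I-125 replicate 3. In these fits 160 of 14364, 122 of 14344 and 380 of 14276 genes were lower. For the other myelin genes the count of 14 became 22 at a log2 fold change threshold of 1, for which no share of all genes is given here. With limma-voom it became 8, where 178 of 14003 genes were lower. It ranged from 1 to 19 in edgeR with each library left out, where 122 of 14344 to 416 of 14333 genes were lower. The 5 genes without overlap became 8 without FNI replicate 2 or FNI+I-125 replicate 2 (range 5 to 8), where 18.0% and 17.6% of all genes were lower without overlap, and 6 with upper-quartile scaling (15.4%). The 5 pairs of genes without overlap in their ratio ranged from 5 to 9, with 9 without FNI+I-125 replicate 2 or 3, where 37.9% and 40.9% of all pairs did not overlap, and 5 remained when pairs with GJB1 or PLLP were left out, which was also chosen after seeing the data. The 1 gene lower relative to SOX10 became 2 with S100B as reference (0.0786% of all genes), 5 without FNI replicate 2 (0.593%) and 7 without FNI+I-125 replicate 2 (0.628%). These shares are higher than with all 6 libraries where a library is left out, since fewer libraries overlap less often. With MAG at 8 counts in 1 library, the filter of at least 10 counts in every library left 7 of the 8 genes.

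The labels give both groups the numbers 1 to 3. Same-numbered libraries did not deviate together, with correlations of 0.05, -0.23 and -0.19 across genes. These values cannot show whether the numbers pair the rabbits, since the labels do not tie a library to a rabbit. With the replicate block, 2 of the 8 genes and 5 of the other myelin genes were at the unadjusted p. Over all genes, 217 of 14003 were lower in that fit.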

Other observations

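Over the 6 libraries, the pair of genes with the narrowest range of ratio was CLDN19 and NCMAP, both known from uncompacted myelin. CLDN19 had 0.344, 0.374 and 0.274 counts per NCMAP count in the FNI group and 0.241, 0.378 and 0.214 in the FNI+I-125 group, a range of 0.82 on the log2 scale. The widest range was that of MAG and PLLP, 4.49 on the same scale, with 0.669, 0.551 and 0.258 counts of MAG per PLLP count against 0.452, 0.961 and 0.0428. Both pairs overlapped between the groups. FNI+I-125 replicate 3 held the lowest ratio of both pairs.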
